A study of Mus musculus with 63 samples.

Results

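The expression of 10 genes of blood vessels was examined in tumours of the small intestine: *Pecam1*, *Cdh5*, *Kdr*, *Flt1*, *Tek*, *Tie1*, *Eng*, *Esam*, *Vegfa* and *Plvap*. They were taken by gene symbol from a table of 24766 genes, and all 10 were found there and passed the filter on low values (a mean of at least 10). RNA was sequenced from 63 libraries of tumours of 2 mice, 1 female and 1 male, with Apchet genotype, in which tamoxifen (4 mg, given above 8 weeks of age) removed 1 *Apc* allele from the intestinal epithelium through a Cre recombinase driven by the Villin promoter and switched on the Confetti colour reporter. Both mice then received the mutagen ENU (200 mg per kg) 10 days later, so every group carries both treatments and no untreated tissue was compared. From 20 tumours of mixed Confetti label, in which unlabelled glands could count as a part, 10 per mouse, a major and a minor clone were dissected apart (20 libraries each), and 23 further tumours (10 of the female, 13 of the male mouse) were sequenced undivided. Because each sex is 1 mouse, sex and mouse cannot be told apart, and p-values describe the spread between tumours of these animals. Besides being dissected, the clones came from tumours of mixed label, whereas the paper set such clones against monoclonal tumours. Undivided tumours can thus differ from clones in tumour type as well as in sampling. These 2 cannot be told apart here, and the labels used do not give the type of each undivided tumour.

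Blood vessels are lined by endothelial cells, which grow towards tissue that secretes VEGF-A, the product of *Vegfa*. The VEGF receptors on these cells are encoded by *Kdr* (VEGFR2, the main signalling receptor) and *Flt1* (VEGFR1, which binds the ligand tightly and limits its action). *Tek* (TIE2) is the receptor of the angiopoietins and *Tie1* its partner, *Eng* (endoglin) is a co-receptor for ligands of the TGF-beta family, and *Cdh5* (VE-cadherin), *Pecam1* (CD31) and *Esam* hold neighbouring endothelial cells together. *Plvap* forms the diaphragms of small openings in capillaries of the gut. In bulk RNA, fewer endothelial cells, less RNA per endothelial cell and a change in RNA from other cells cannot be told apart.

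In GRCm39, *Flt1* lies on the minus strand of chr5:147498414-147662826 and *Kdr* on the minus strand of chr5:76093487-76139884. *Tek* is found at chr4:94627291-94763224 (plus strand) and *Tie1* at chr4:118328385-118347261 (minus strand). *Cdh5* occupies chr8:104828231-104871143 (plus strand) and *Plvap* chr8:71948674-71964506 (minus strand). The others are *Pecam1* at chr11:106543689-106641454 (minus strand), *Eng* at chr2:32535543-32574661 (plus strand), *Esam* at chr9:37439344-37449615 (plus strand) and *Vegfa* at chr17:46327919-46343309 (minus strand). Only *Eng* is overlapped by annotated genes of its own strand (3 of them), so some of its reads could have been assigned elsewhere.

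The level of a gene is given as a normalised count, an estimated read count scaled between libraries, and genes are compared with each other per kb of exon. By that measure, *Cdh5* was highest over the 63 libraries, at 1005 ± 631 normalised counts per kb (mean ± SD, n = 63), followed by *Vegfa* at 507 ± 146. *Plvap* reached 196 ± 118 per kb. *Flt1* (88.0 ± 63.7), *Esam* (84.4 ± 27.3) and *Tek* (83.8 ± 92.2) followed, at levels within 1 SD of one another. *Eng* (49.6 ± 31.7), *Tie1* (39.1 ± 19.6), *Pecam1* (33.0 ± 18.8) and *Kdr* (21.6 ± 13.2) were lowest and overlapped as well. Thus, *Cdh5* lay far above *Pecam1*, although both encode junction proteins known from endothelium. Within a library, the log2 ratio of *Cdh5* to *Pecam1* was taken on normalised counts, not divided by exon length (4381 and 10002 bp). It had a median of 4.43 in the minor clones, 3.29 in the major clones and 3.03 in the undivided tumours. Among the undivided tumours it ranged from -0.75 to 5.73. Such a ratio compares libraries and classes, and its sign does not tell which gene had the higher level per kb. The markers of blood endothelium were all detected, with means of 78.7 normalised counts for *Emcn*, 46.2 for *Erg*, the transcription factor, and 31.3 for *Cldn5*, a tight junction gene that was listed at 0 in some libraries.

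The 10 genes did not vary together across libraries. After the mean of each class and mouse was removed, *Pecam1*, *Kdr*, *Tie1*, *Eng* and *Plvap* were tightly correlated over the 63 libraries, with Pearson r between 0.79 and 0.97 for their 10 pairs (Spearman rho between 0.80 and 0.97). *Cdh5*, *Flt1* and *Tek* correlated with one another at r between 0.50 and 0.73 (rho 0.50 to 0.72). Between these sets, the 15 pairs reached only 0.14 to 0.41 (rho 0.14 to 0.37). *Cdh5* and *Pecam1* had an r of 0.14 over all libraries, of -0.33 in the female and of 0.28 in the male mouse. *Vegfa* was closer to *Cdh5*, *Flt1* and *Tek* (0.60 to 0.67) than to the other set (0.39 to 0.52), and *Esam* was loosely related to both (0.35 to 0.49 and 0.14 to 0.33). These sets were recognised in the data and are given as a description. The libraries share 2 mice, and the 2 clones of a tumour share that tumour. Within each class, the median r among *Pecam1*, *Kdr*, *Tie1*, *Eng* and *Plvap* was 0.96 for major clones, 0.91 for minor ones and 0.94 for tumours left whole, while between the sets it was 0.25, 0.17 and 0.33. *Cdh5*, *Flt1* and *Tek* stood apart less clearly. Their r with one another (0.67 to 0.81) lay above the range between the sets (0.077 to 0.38) in major clones, but the ranges overlapped in minor clones (0.41 to 0.64 against -0.0023 to 0.56) and in undivided tumours (0.50 to 0.76 against 0.11 to 0.61). In the female mouse alone, *Cdh5*, *Flt1* and *Tek* were less close to one another (0.26 to 0.45) than in the male mouse (0.62 to 0.84), a difference that was not tested. For *Vegfa*, r with *Cdh5*, *Flt1* and *Tek* overlapped r with the *Pecam1* set in major clones (0.59 to 0.82 against 0.57 to 0.62). The same held in undivided tumours (0.57 to 0.71 against 0.39 to 0.59) and in the female mouse (0.23 to 0.64 against 0.097 to 0.32). These ranges lay apart in minor clones (0.50 to 0.69 against 0.12 to 0.34) and in the male mouse (0.69 to 0.75 against 0.47 to 0.60).

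**Figure D1:**
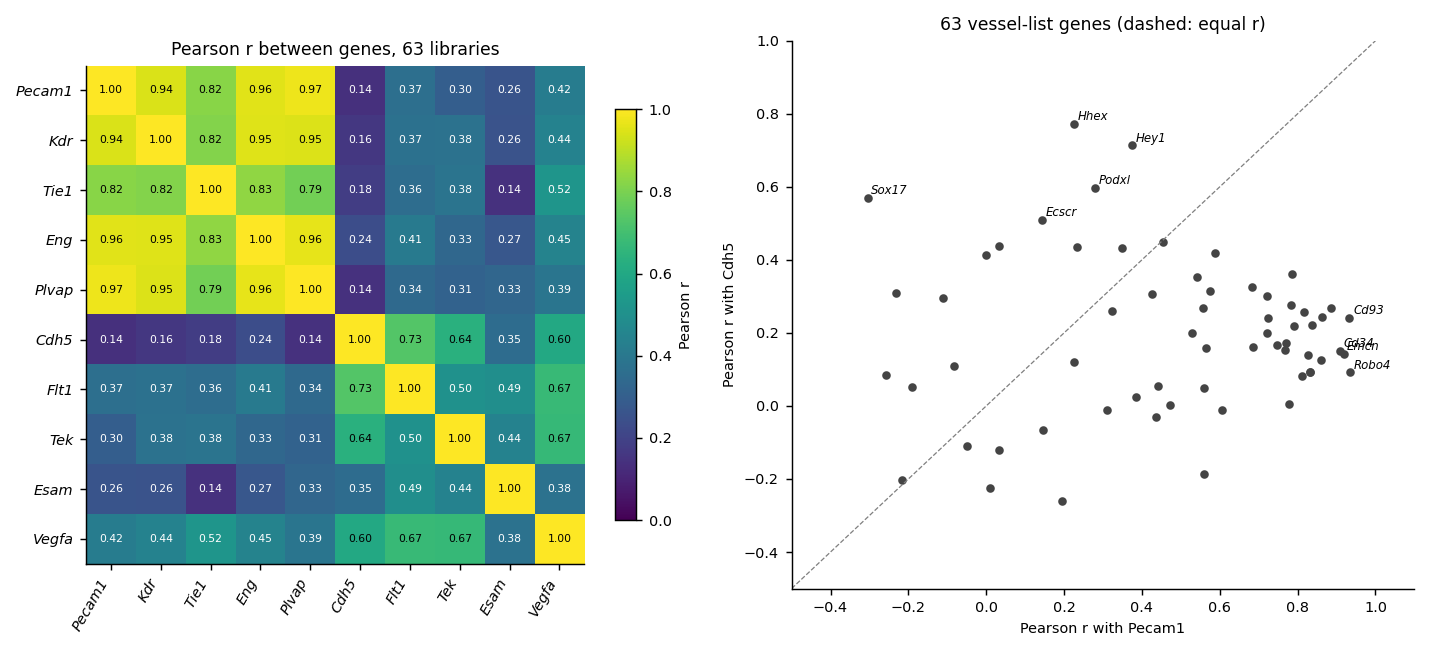
Left, Pearson r between the 10 genes over 63 libraries, from log2(normalised count + 1) centred on class and mouse, with colour for r. Right, 63 genes of 6 vessel-related lists, each a point with its r with *Pecam1* (x axis) and with *Cdh5* (y axis). *Pecam1*, *Kdr*, *Tie1*, *Eng* and *Plvap* form a block with r of at least 0.79, and most list genes lie below the dashed line of equal r, on the side of *Pecam1*.

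Most other genes of endothelial cells had a higher r with *Pecam1* than with *Cdh5*. Of 25 further genes of endothelial junctions and surfaces, 20 had a higher r with *Pecam1*, at a median of 0.78 against 0.22 for *Cdh5*. *Robo4* (0.94 with *Pecam1* and 0.09 with *Cdh5*), *Emcn* (0.92 and 0.14) and *Cd34* (0.91 and 0.15) are examples picked for their high r. The same held for 5 of 5 BMP and TGF-beta receptor genes (medians of 0.61 and 0.26) and for 10 of 14 endothelial transcription factors (0.50 and 0.18). Of 11 Notch and ephrin genes it held for 6, with medians of 0.31 and 0.11. These counts are a description and are not particular to endothelium, since 8 of 8 epithelial genes also had the higher r with *Pecam1* (medians of 0.39 and 0.14). Over all 16489 genes 51.0% did, with medians of 0.02 and 0.0011. Genes with a higher r with *Cdh5*, picked after their values were seen, were *Hhex* (r = 0.77 with *Cdh5* and 0.23 with *Pecam1*), *Hey1* (0.71 and 0.38), *Podxl* (0.60 and 0.28), *Sox17* (0.57 and -0.30) and *Ecscr* (0.51 and 0.14). *Sox17* and *Hhex* are transcription factors that are also known from endoderm, and *Podxl* encodes a sialomucin that epithelia can make too.

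The genes nearest to each gene were looked up as well. For *Plvap*, *Igfbp7* (0.96), *Robo4* (0.94) and *Cd93* (0.94) were nearest outside the 10 genes, all known from endothelium. For *Eng* they were *Cd93* (0.96), *Igfbp7* (0.95) and *Pdgfrb*, the pericyte receptor (0.94), which was also among the 10 nearest to *Plvap* (0.93). In contrast, the genes nearest to *Cdh5* were *Eva1a* (0.88), *Tmprss11e* (0.84), *Abcc4* (0.81), *Itgb8* (0.81) and *Adam28* (0.80), with the gastric mucin gene *Muc5ac* at 0.78. For *Flt1* they were *Chst15* (0.82), *Itga5* (0.80) and *Rnf225* (0.79), for *Tek* they were *Ggta1* (0.71), *Hhex* (0.71) and *Kalrn* (0.69), and for *Esam* they were *Slc48a1* (0.76), *Snx33* (0.72) and *Pcyox1* (0.72). No endothelial marker was among the 10 genes nearest to *Cdh5*. The mean of the 9 genes other than *Vegfa* was most like *Thbd* (0.90), *Cd93* (0.89), *Pdgfrb* (0.88), *Igfbp7* (0.87), *Sod3* (0.86), *Cd300lg* (0.86), *Igfbp3* (0.86), *Lamc1* (0.86), *Col5a3* (0.85) and *Nrg1* (0.85), of 16489 genes. The division differed between the means of whole lists. The mean of 8 pericyte genes had an r of 0.83 with *Pecam1* and 0.27 with *Cdh5*, and the mean of 9 fibroblast genes an r of 0.84 and 0.07. For the mean of 8 epithelial genes the values were 0.40 and 0.07. For 14 endothelial transcription factors they were 0.76 and 0.46, and for 11 Notch and ephrin genes 0.58 and 0.56, with 0.66 for *Flt1*. Whether other cells than endothelium contribute *Cdh5*, *Flt1* or *Tek* RNA was not tested.

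To set the correlated sets beside their gene sequences, the 250 bases before the start of transcription were read for *Kdr* and *Eng*, from one set, and for *Flt1* and *Tek*, from the other. RefSeq promoter sequences (GRCm38.p6) were matched by symbol for 6 of the 10 genes, the others being *Pecam1*, *Cdh5*, *Esam* and *Plvap*. The windows are chr5:75978456-75978705 (minus strand) for *Kdr*, chr2:32646345-32646594 (plus strand) for *Eng*, chr5:147726012-147726261 (minus strand) for *Flt1* and chr4:94739039-94739288 (plus strand) for *Tek*. Capitals mark GGAA, the core of the motif bound by ETS factors (such as ERG and FLI1 in endothelium), on either strand:
Kdr: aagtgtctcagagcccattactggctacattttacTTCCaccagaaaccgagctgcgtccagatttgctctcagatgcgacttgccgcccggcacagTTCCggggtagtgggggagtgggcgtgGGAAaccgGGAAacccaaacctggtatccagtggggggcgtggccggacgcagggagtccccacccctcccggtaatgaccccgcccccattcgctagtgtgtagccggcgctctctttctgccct
Eng: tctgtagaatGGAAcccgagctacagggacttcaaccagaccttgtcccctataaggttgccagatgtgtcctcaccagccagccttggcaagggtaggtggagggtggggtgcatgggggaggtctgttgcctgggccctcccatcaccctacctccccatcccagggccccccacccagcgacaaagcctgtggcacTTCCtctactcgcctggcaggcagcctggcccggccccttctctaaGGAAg
Flt1: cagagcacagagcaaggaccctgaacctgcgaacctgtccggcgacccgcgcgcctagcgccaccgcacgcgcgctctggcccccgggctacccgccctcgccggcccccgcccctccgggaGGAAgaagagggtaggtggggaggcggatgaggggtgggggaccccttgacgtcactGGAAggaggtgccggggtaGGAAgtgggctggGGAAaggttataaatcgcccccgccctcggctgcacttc
Tek: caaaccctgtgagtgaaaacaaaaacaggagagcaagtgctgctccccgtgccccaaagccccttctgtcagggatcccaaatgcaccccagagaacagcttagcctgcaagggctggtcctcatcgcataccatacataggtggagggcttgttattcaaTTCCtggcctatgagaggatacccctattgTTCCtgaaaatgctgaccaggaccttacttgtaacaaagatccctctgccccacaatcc

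GGAA occurred 4 times in the *Kdr* window, 3 times in that of *Eng*, 4 times in that of *Flt1* and 2 times in that of *Tek*. The windows that are not printed held it 7 times for *Tie1*, from the set of *Kdr* and *Eng*, and 6 and 2 times for the 2 start sites of *Vegfa*. In 250 bases such a short motif is common: 93.4% of 32851 promoters held it, with a median of 3. The hypoxia response core, searched as ACGTG or GCGTG on both strands, was found 2 times in the *Kdr* and 1 time in the *Flt1* window and was not among the letters of those of *Eng*, *Tek* and *Tie1*, while the windows of *Vegfa* held it 0 and 2 times, against a share of 38.6% of all promoters. TATAAA, searched on both strands, was present once in the *Flt1* window only, among these 4 and the *Tie1* and *Vegfa* windows, against 12.4% of all promoters.

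To compare tumours that were left whole with the clones of divided tumours, the 23 undivided tumours were first set against the 20 minor clones, with mouse as a covariate. Tumour type was not a covariate, and its part in the differences between undivided tumours and clones was not tested. *Flt1* and *Cdh5* were lower in the undivided tumours. *Pecam1*, *Kdr*, *Tie1*, *Eng* and *Plvap* differed by at most 0.20 on the log2 scale. Of all 16491 genes tested, 610 passed an adjusted p of 0.05 (3.7%), among them 235 lower in undivided tumours (1.43%). Of the 10 vessel genes, a name for the list and not for the cells that held the RNA, 2 passed, both lower. These 2, *Flt1* and *Cdh5*, are outside the set correlated with *Pecam1*. The median log2 difference of the 10 was -0.16, against -0.01 over all genes.

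*Flt1* ranged from 69.4 to 2706 normalised counts in the undivided tumours, with a median of 515, and from 668 to 3534 in the minor clones, with a median of 1298. The classes overlapped, yet 15 of 23 undivided tumours lay below the lowest minor clone and 21 of 23 below the minor median. The log2 difference was -1.48 ± 0.30 (SE), or 2.80-fold on the log2(value + 1) scale (limma, adjusted p = 0.00985). It was -1.002 in the female mouse, where the adjusted p over all genes was 0.470, and -1.91 in the male mouse (adjusted p = 0.0218). The test of the difference between mice gave 0.91 ± 0.59 (limma, unadjusted p = 0.133, adjusted p = 0.544).

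*Cdh5* ranged from 157 to 8659 in the undivided tumours (median 2166) and from 858 to 9891 in the minor clones (median 5533). The classes overlapped widely, with 4 undivided tumours, all of the male mouse, below the lowest minor clone and 17 of 23 below the minor median. The log2 difference was -1.12 ± 0.33 (2.18-fold, limma, adjusted p = 0.0473), close to the threshold: the call was kept in 18 of 43 fits that each left out 1 library, where the adjusted p ran from 0.0325 to 0.0827. In the female mouse the difference was -0.53 and in the male mouse -1.65, and *Cdh5* passed in neither mouse alone. The number of the 10 genes that passed was 1 with no filter on low values and 1 without the trend in limma. It was also 1 with segment as a further covariate and 1 in SI10 and SI20 alone. Every class of the male mouse had a lower median *Cdh5* than the same class of the female mouse, with 1610 against 5389 in undivided tumours.

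*Tek* had a median of 146 in undivided tumours (44.6 to 1731) and of 484 in minor clones (19.7 to 3116), so that the undivided tumours lay within the range of the clones. Its log2 difference of -1.18 ± 0.40 was as large as that of *Cdh5* but did not pass (limma, adjusted p = 0.0827). It passed in 1 of 43 fits, the one that left out tumour 19's minor clone (male mouse), which held the lowest *Tek* value of all libraries. *Esam* (-0.45 ± 0.17, adjusted p = 0.130) and *Vegfa* (-0.35 ± 0.13, adjusted p = 0.109) did not pass in limma either. *Vegfa* had a median of 1754 in undivided tumours (819 to 3311) and of 2233 in minor clones (1226 to 3570). *Esam* had a median of 194 in undivided tumours (52.5 to 407) and of 299 in minor clones (168 to 460), where 5 undivided tumours lay below the lowest clone. When libraries were brought to the same sum without the ribosomal RNA gene *Rn18s*, 4 genes passed: *Flt1* (-1.59), *Cdh5* (-1.23), *Tek* (-1.29) and *Vegfa* (-0.46). That scaling also called more of all genes, 891 of 16509 (5.4%), and moved their median log2 difference to -0.12. *Rn18s* took a median of 6.19% of the sum in minor clones, 3.11% in undivided tumours and 1.24% in major clones, and its part in these differences beyond that alternative was not tested.

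For *Pecam1*, *Kdr*, *Tie1*, *Eng* and *Plvap*, the ranges of undivided tumours and minor clones overlapped widely, with the lowest value in an undivided tumour and the highest in a minor clone for each of the 5 genes. *Pecam1* had a median of 320 in undivided tumours (22.8 to 617) and of 296 in minor clones (57.8 to 864). *Kdr* had medians of 170 (8.85 to 372) and 182 (23.4 to 507), and *Eng* of 385 (11.3 to 718) and 341 (48.8 to 1074). For *Plvap* the medians were 784 (58.4 to 1465) and 659 (137 to 1866), and for *Tie1* 185 (26.1 to 376) and 190 (45.5 to 389). The differences were 0.03 for *Pecam1* (95% interval -0.54 to 0.60), 0.06 for *Kdr* (-0.62 to 0.74), 0.13 for *Tie1* (-0.35 to 0.62), 0.07 for *Eng* (-0.67 to 0.80) and 0.20 for *Plvap* (-0.45 to 0.84). These intervals leave room for differences of more than 0.5 on the log2 scale in either direction, except for the lower bounds of *Tie1* and *Plvap*. The 2 VEGF receptors thus differed in their values, *Flt1* being lower in undivided tumours and *Kdr* at 0.06. The log2 ratio of *Flt1* to *Kdr* had a median of 1.81 in undivided tumours, 2.63 in major and 3.57 in minor clones. It was taken on normalised counts, not divided by exon length (13660 and 9199 bp), so it compares classes and not levels per kb.

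**Figure D2:**
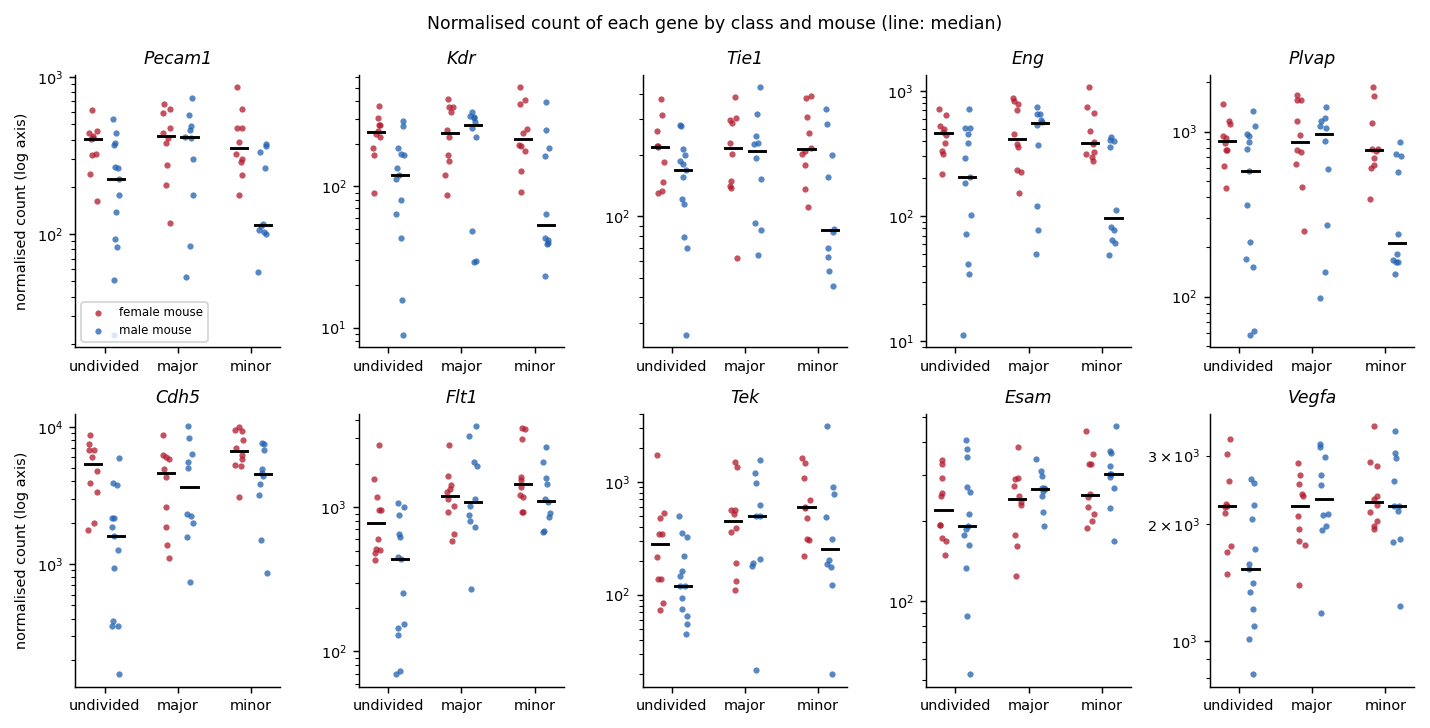
Normalised count (log axis) of each gene in undivided tumours, major clones and minor clones. Each point is 1 library, red for the female and blue for the male mouse, and the line is the median. *Flt1* in undivided tumours lies mostly below the minor clones, and *Eng*, *Pecam1* and *Plvap* in minor clones of the male mouse split into low and high libraries.

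Against the 20 major clones, no vessel gene passed, and 2 of 16510 genes did overall (0.0121%). All 10 log2 differences were below 0, with a median of -0.41 against -0.01 over all genes, of which 47.8% were above 0. Several of the 10 genes vary together, so their signs are not separate observations. At an unadjusted p under 0.05, 3 of the 10 and 1973 of all genes (12%) were found by limma. *Flt1* was again the largest at -1.27 ± 0.33 (limma, adjusted p = 0.206), with a median of 1135 in major clones (272 to 3628), and 20 of 23 undivided tumours lay below that median. *Tek* differed by -1.08 ± 0.41 (adjusted p = 0.335) and *Vegfa* by -0.29 ± 0.13 (adjusted p = 0.398). Since the undivided tumours stand in this comparison and in that with the minor clones, the values of the 2 comparisons are not independent. Beside these values, the median log2 difference was -0.71 over 9 fibroblast genes, -0.56 over 9 pericyte genes, -0.59 over 13 vessel matrix genes and -0.56 over 6 lymphatic endothelial genes, with 0 genes of these lists above 0. It was -0.43 over 5 platelet genes (2 above 0), -0.15 over 8 smooth muscle genes (2 above 0), -0.03 over 8 epithelial genes (3 above 0) and 0.09 over 12 leukocyte genes (8 above 0). Over 25 endothelial junction and surface genes it was -0.37 (2 above 0). No gene of these lists passed, and their part in the differences of the vessel genes was not tested.

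The values of each mouse are given for the comparison with major clones. *Cdh5* was at 0.37 in the female and at -1.47 in the male mouse, *Flt1* at -0.48 and -1.96, and *Vegfa* at 0.04 and -0.58. The differences between mice were 1.85 ± 0.72 for *Cdh5* (limma, unadjusted p = 0.0145, adjusted p = 0.316), 1.47 ± 0.64 for *Flt1* (unadjusted p = 0.0257, adjusted p = 0.366) and 0.63 ± 0.25 for *Vegfa* (unadjusted p = 0.0180, adjusted p = 0.332). None of them passed, and no gene of 16510 did in this test (0%), while 1922 (11.6%) had an unadjusted p under 0.05 in limma. All 10 differences between mice were above 0, with a median of 0.72 against 0.02 over all genes, of which 52.5% were above 0. Beside them, 24 of 25 junction and surface genes (median 0.96), 13 of 13 vessel matrix genes (0.80), 8 of 9 pericyte genes (0.62), 7 of 9 fibroblast genes (0.56), 9 of 12 leukocyte genes (0.17) and 4 of 8 epithelial genes (0.04) were above 0. Only 2 of 6 lymphatic endothelial genes (-0.41), 2 of 8 smooth muscle genes (-0.41) and 2 of 5 platelet genes (-0.18) were, and the part of these cells was not tested. For *Flt1*, 13 of 13 undivided tumours of the male mouse lay below the median of its major clones, and for *Cdh5* 10 of 13 did. The lowest values were found in a few of these tumours. *Flt1* was at 69.4, 73.4, 131, 145 and 154 in tumours 5, 2, 17, 15 and 18. *Cdh5* was at 157, 352, 356 and 384 in tumours 15, 2, 5 and 18. Tumour 15 had 945 normalised counts of *Plvap* and 265 of *Pecam1*, near the middle of its class, whereas tumour 17 had the lowest *Pecam1* (22.8), *Kdr* (8.85) and *Eng* (11.3) of all libraries with 1260 of *Cdh5*.

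**Figure D3:**
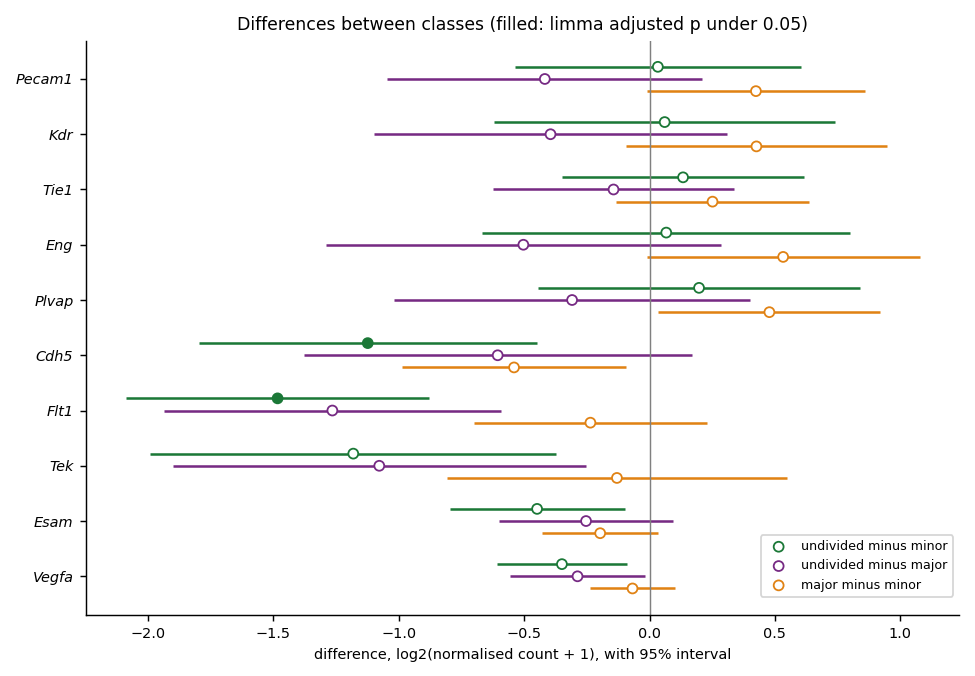
Differences between classes for the 10 genes on the log2(normalised count + 1) scale (x axis), with 95% intervals as lines. Colours stand for the 3 comparisons and filled points for an adjusted p under 0.05, which only *Flt1* (-1.48) and *Cdh5* (-1.12) reached, in undivided tumours against minor clones.

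Next, the major clone was compared with the minor clone of the same tumour. In tumour 22 of the female mouse the labels place the major clone in SI20 and the minor clone in SI10, names of intestinal segments, and the clones were paired by tumour number all the same. Without that tumour 0 of the 10 genes passed as well. No vessel gene passed, against 188 of 16428 genes overall (1.14%). At an unadjusted p under 0.05 limma found 2 of the 10 and 3680 of all genes (22.4%), so 2 of 10 lies near that share. In the major clones *Plvap* had a median of 920 normalised counts (98.2 to 1656), *Eng* of 495 (49.6 to 880), *Pecam1* of 413 (53.3 to 732), *Kdr* of 255 (29.3 to 418) and *Tie1* of 216 (62.8 to 433). *Cdh5* had a median of 4583 there (738 to 10079), *Tek* of 503 (21.3 to 1560), *Esam* of 263 (124 to 383) and *Vegfa* of 2240 (1178 to 3210). All of these ranges overlapped those of the minor clones. As the log2 difference within tumours, *Plvap* was at 0.48 ± 0.21 (limma, adjusted p = 0.188, higher in the major clone in 13 of 20 tumours), *Eng* at 0.53 ± 0.26 (14 of 20), *Pecam1* at 0.42 ± 0.21 (13 of 20), *Kdr* at 0.43 ± 0.25 (11 of 20) and *Tie1* at 0.25 ± 0.19 (13 of 20). *Cdh5* had the opposite sign, at -0.54 ± 0.22 (limma, adjusted p = 0.143), and was higher in the major clone in only 6 of 20 tumours. *Flt1* (-0.24 ± 0.22), *Tek* (-0.13 ± 0.33), *Esam* (-0.20 ± 0.11) and *Vegfa* (-0.07 ± 0.08) were nearer to 0. For *Vegfa* the 95% interval ran from -0.24 to 0.10.

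The gap between clones was also taken in each mouse, and no gene passed the test of its difference between mice. In the female mouse, *Eng* was at -0.07 ± 1.07 (SD, n = 10 tumours) and in the male mouse at 1.14 ± 1.21, with the major clone higher in 5 of 10 and 9 of 10 tumours. *Pecam1* was at -0.01 and 0.86, *Kdr* at -0.05 and 0.90, *Tie1* at -0.17 and 0.68, and *Plvap* at 0.02 and 0.94. By the test of the difference between mice, *Tie1* (unadjusted p = 0.0180), *Eng* (0.0184), *Plvap* (0.0280) and *Pecam1* (0.0366) had an unadjusted p under 0.05 in limma, with adjusted p of 0.633 each. Over all genes 1257 had such a p (7.65%), 0 of 16428 passed (0%) and 49.3% of the differences were above 0. Beside these values, the female gap minus the male gap had a median of -0.64 over 8 pericyte genes (0 above 0), -0.67 over 13 vessel matrix genes (0 above 0), -0.39 over 12 leukocyte genes (0 above 0), -0.48 over 9 fibroblast genes (1 above 0) and -0.48 over 8 smooth muscle genes (2 above 0), against -0.86 over the 10 vessel genes. The median was -0.59 over 24 endothelial junction and surface genes (1 above 0). It was -0.17 over 6 lymphatic endothelial genes (1 above 0), -0.04 over 5 platelet genes (2 above 0) and -0.01 over 8 epithelial genes (4 above 0). The part of these cells was not tested. The minor clones of the male mouse fell apart: *Eng* was between 48.8 and 111 in tumours 19, 29, 31, 27, 23 and 28, and between 359 and 432 in tumours 22, 26, 20 and 25. The major clones of tumours 23, 19 and 27 were low as well (49.6, 77.9 and 120), whereas those of tumours 29 and 28 reached 580 and 654. *Pecam1* showed the same split, with 57.8 to 115 in the same 6 minor clones and 264 to 375 in the other 4. *Cdh5* followed it in part. Among the 6 minor clones low in *Eng*, it was at 858 to 4634 in tumours 19, 27, 31, 28 and 23. In tumour 29 it had the highest value of its class in that mouse (7603). Among the other 4 it was at 4922 to 7484 in tumours 22, 25 and 26, but at 1494 in tumour 20.

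**Figure D4:**
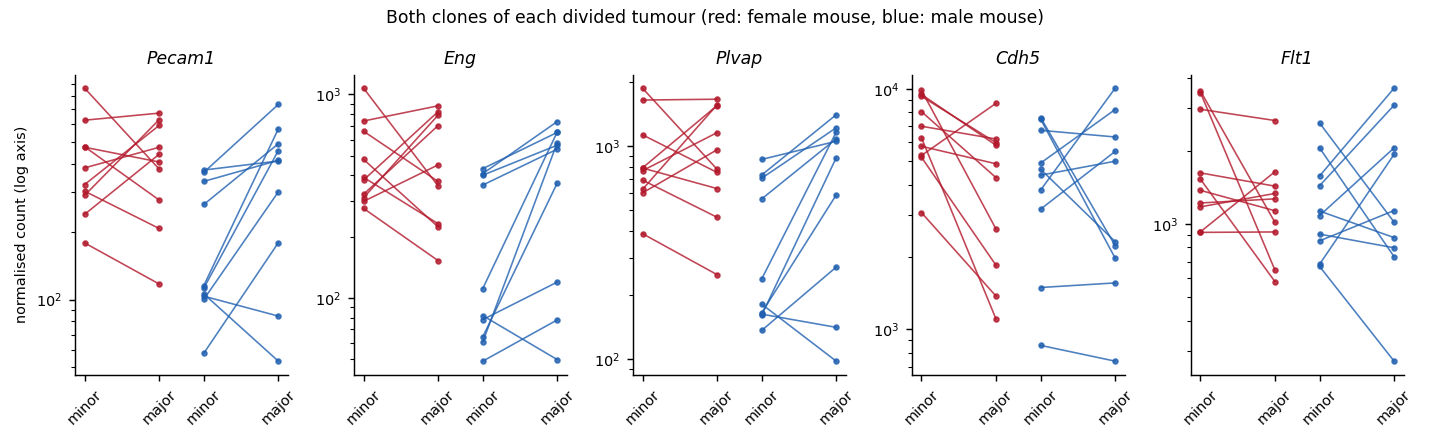
Normalised count (log axis) of *Pecam1*, *Eng*, *Plvap*, *Cdh5* and *Flt1* in the minor and major clone of each of 20 divided tumours, joined by a line (red, female mouse; blue, male mouse). In the male mouse *Eng* is higher in the major clone in 9 of 10 tumours, and in the female mouse *Cdh5* is higher in the minor clone in 9 of 10.

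Whether both clones of a tumour had like levels was asked over the 20 divided tumours, with values centred on class and mouse. *Plvap* had the closest relation (r = 0.60, permutation p = 0.00465, rho = 0.61, permutation p = 0.00503). *Tie1* (r = 0.55), *Pecam1* (0.52), *Kdr* (0.51), *Vegfa* (0.50), *Cdh5* (0.49), *Tek* (0.48) and *Eng* (0.48) followed, and these 8 genes had an adjusted permutation p of 0.041 over the 10 relations computed. *Flt1* and *Esam* stood at 0.12 and 0.11 (adjusted p = 0.636 for each). By rho, however, no relation passed, the lowest adjusted permutation p being 0.0503 for *Plvap*. Over 16489 genes the median r was 0.25, and 18.6% lay above 0.5. Without the 2 tumours farthest from the median, r stayed at 0.57 for *Plvap* and 0.51 for *Pecam1*. It dropped to 0.37 for *Tie1*, 0.34 for *Eng*, 0.32 for *Kdr*, 0.27 for *Cdh5*, 0.14 for *Vegfa* and 0.04 for *Tek*, so the relations of these genes rest on those tumours. Within a mouse no relation passed: r ran from -0.09 to 0.45 in the female mouse (10 tumours) and from 0.24 to 0.72 in the male mouse (10 tumours), where the minor clones fall into the separate sets described for *Eng* and *Pecam1* and no relation was computed inside a set.

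The ligand gene *Vegfa* was compared with the other 9 genes across the 23 undivided tumours, centred on mouse. Over the 23 tumours *Flt1* had the highest r of the 9, at 0.71 (permutation p = 0.0002, adjusted p = 0.0018), with rho = 0.73 (permutation p = 9.0e-05). Over all other 16488 genes the median r with *Vegfa* was -0.0022, 12.2% lay above 0.5 and 2.30% above *Flt1*. For *Flt1* r was 0.73 without the 2 tumours farthest from the median *Vegfa* value, 0.83 in 10 tumours of the female and 0.67 in 13 of the male mouse (permutation p = 0.00274 and 0.0135). In the male mouse *Cdh5* had the higher r (0.71) and *Tie1* was also at 0.67. *Cdh5* had r = 0.63 (adjusted permutation p = 0.00612), *Tie1* 0.59 (0.00657), *Tek* 0.57 (0.0110), *Eng* 0.53 (0.0178) and *Pecam1* 0.46 (0.0403). *Kdr* (0.43, adjusted permutation p = 0.0540), *Plvap* (0.39, 0.0766) and *Esam* (0.21, 0.339) did not pass. By rho, which gives extreme tumours less weight, *Kdr* (0.46, adjusted permutation p = 0.0312) and *Plvap* (0.48, 0.0260) passed as well. Without the 2 farthest tumours, the order below *Flt1* changed: r was 0.67 for *Tie1*, 0.63 for *Eng*, 0.62 for *Pecam1*, 0.62 for *Plvap*, 0.59 for *Tek*, 0.59 for *Kdr*, 0.51 for *Cdh5* and 0.40 for *Esam*. In the female mouse *Flt1* was the only relation that passed over the 9 (adjusted permutation p = 0.0247), and in the male mouse *Flt1*, *Cdh5*, *Tie1* and *Tek* did. These values describe tumours that vary together and do not tell which cells hold either RNA. Over all 63 libraries the mean of 17 hypoxia target genes had an r of 0.73 with *Vegfa*, itself a known target of hypoxia. That r was 0.52 with *Tie1*, 0.40 with *Tek*, 0.39 with *Eng*, 0.36 with *Pecam1* and 0.36 with *Kdr*. With *Plvap* it was 0.35, with *Flt1* 0.34, with *Cdh5* 0.31 and with *Esam* -0.04.

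**Figure D5:**
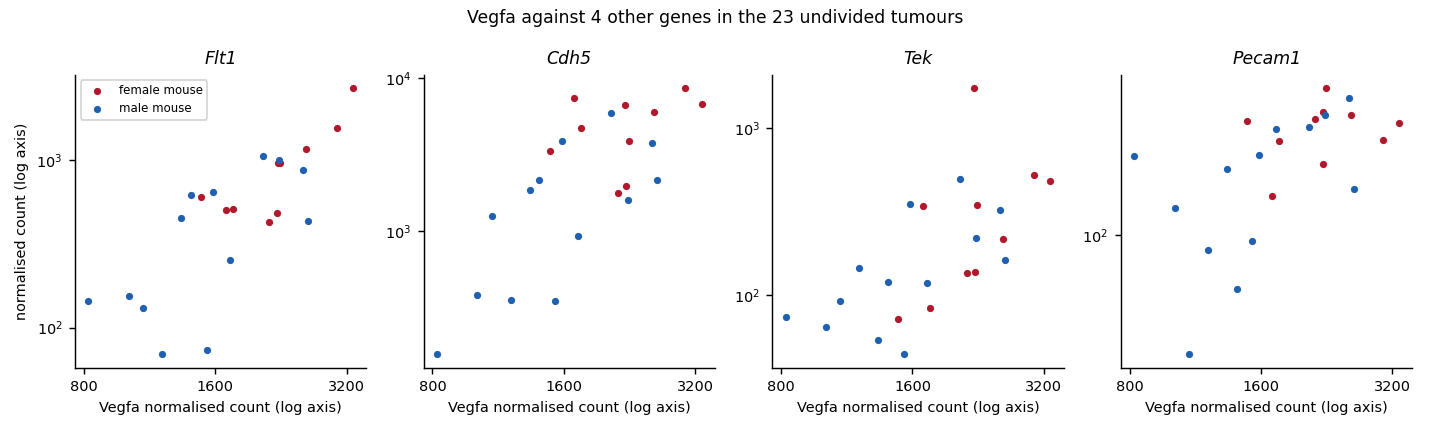
Normalised count of *Vegfa* (x axis, log) against that of *Flt1*, *Cdh5*, *Tek* and *Pecam1* (y axes, log) in the 23 undivided tumours, each a point (red, female mouse; blue, male mouse). *Flt1* follows *Vegfa* most closely (r = 0.71 after centring on mouse), with *Pecam1* at 0.46, or 0.62 without the 2 tumours farthest from the median *Vegfa* value.

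The position along the small intestine was examined as SI10 and SI20, segment names as in the sample labels. In undivided tumours no vessel gene passed between 12 tumours of SI10 and 11 of SI20, against 28 of 16511 genes (0.17%). An unadjusted p under 0.05 in limma was found for 1 of the 10 and 1258 of all genes (7.62%). *Eng* was at 11.3 to 638 in SI10 (median 267) and at 102 to 718 in SI20 (median 473), a log2 difference of -1.15 ± 0.51 (limma, unadjusted p = 0.0332, adjusted p = 0.613). *Kdr* (-0.89 ± 0.44), *Plvap* (-0.78 ± 0.46) and *Pecam1* (-0.75 ± 0.40) had the same sign, as did all 10 genes (median -0.39), and *Tek* was at -0.09 ± 0.49. Over all genes 50.1% of the differences were above 0. With 1 tumour left out, *Tek* ran from -0.28 to 0.19 and *Esam* from -0.23 to 0.038, so their sign rests on single tumours. Beside the 10 genes the median was -0.85 over 9 fibroblast genes (1 above 0), -0.76 over 13 vessel matrix genes (0 above 0), -0.52 over 6 lymphatic endothelial genes (1 above 0), -0.49 over 8 pericyte genes (1 above 0) and -0.26 over 5 platelet genes (1 above 0). The median was -0.46 over 25 endothelial junction and surface genes (5 above 0). It was -0.09 over 8 epithelial genes (1 above 0), -0.07 over 8 smooth muscle genes (3 above 0) and 0.17 over 12 leukocyte genes (8 above 0). The part of these lists in the values of the vessel genes was not tested. In the divided tumours (7 of SI10, 10 of SI20), the means of both clones were compared. Tumour 22 and the tumours of SI30, all of the female mouse, were left out. No vessel gene passed, against 46 of 16436 genes (0.28%). None had an unadjusted p under 0.05 in limma, against 2358 of all genes (14.3%). The 10 differences lay between -0.66 (*Tek*) and 0.05 (*Tie1*). With 1 divided tumour left out, *Tek* ran from -0.95 to -0.023 and *Tie1* from -0.20 to 0.30. Of the marker lists 1 gene passed in the divided tumours, the platelet gene *Gp1bb* (-0.96 ± 0.18, limma, adjusted p = 0.0265). The gap between clones did not pass between the segments for any of the 10 genes nor for any of 16436 genes in limma (0%). *Esam* alone of the 10 had an unadjusted p under 0.05 (limma, 0.0493), against 667 of all genes (4.06%). The same 0 of 10 passed for the difference between mice in undivided tumours against minor clones (0 of 16491 genes, 0%). There none of the 10 and 2098 of all genes (12.7%) had an unadjusted p under 0.05 in limma.

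Other genes of the pathways gave few calls, to be read against 3.7% of all genes in undivided tumours against minor clones and 1.14% in major against minor clones. In undivided tumours against minor clones, 0 of 6 tested VEGF ligands and co-receptors passed. All 6 log2 differences were below 0, where 46.7% of all genes were above 0. Among them were -0.33 for the ligand gene *Vegfb*, -0.30 for *Nrp1* and -0.24 for *Nrp2*, which encode VEGF co-receptors. Named after its value was seen, *Vegfc*, a ligand of lymphatic vessels, was at -0.62 (limma, adjusted p = 0.0678). Of the angiopoietins, *Angpt2* had a mean of 186 normalised counts and a difference of -0.44 (adjusted p = 0.275), while *Angpt1* and *Angpt4* were under the filter with means of 3.20 and 1.13. Of 25 tested junction and surface genes 1 passed, *Podxl*, which was lower in undivided tumours (-0.80 ± 0.20, limma, adjusted p = 0.0231), with medians of 1675 against 2717 in minor clones. None of 14 transcription factors, 11 Notch and ephrin genes, 5 BMP and TGF-beta receptors and 13 vessel matrix genes passed. Of 17 hypoxia targets 1 passed, *Bnip3*, a mitophagy gene (-0.50 ± 0.14, adjusted p = 0.0366), so that 1 of 25 and 1 of 17 lie near the share over all genes. In major against minor clones 1 of 11 Notch and ephrin genes passed, the Notch ligand gene *Dll4*. It was higher in the major clone in 16 of 20 tumours (0.58 ± 0.14, limma, adjusted p = 0.0444), with a median of 196 against 124. Which cells held its RNA was not tested. Against major clones none of these lists had a gene that passed.

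Markers of other cells are given beside the vessel genes, after the list of endothelial junction and surface genes. For that list, major against minor clones gave a median log2 difference of 0.34 over 24 genes (17 above 0). None of them passed, and 51.8% of all genes were above 0. In undivided tumours against minor clones its median was -0.15 over 25 genes (7 above 0). From minor to major clones the median log2 difference was 0.66 over 9 fibroblast genes (8 above 0), 0.50 over 8 smooth muscle genes (7 above 0), 0.37 over 12 leukocyte genes (12 above 0), 0.28 over 8 pericyte genes (7 above 0), 0.44 over 5 platelet genes (5 above 0), 0.40 over 13 vessel matrix genes (13 above 0), 0.10 over 6 lymphatic endothelial genes (4 above 0) and 0.11 over 8 epithelial genes (8 above 0), against 0.01 over all genes, and no gene of these lists passed. The summed level of the 10 fibroblast genes ran from 3965 to 25523 in major, from 4600 to 25698 in minor clones and from 3095 to 23731 in undivided tumours, and no fibroblast, pericyte, leukocyte or smooth muscle gene was at 0 in every library. In undivided tumours against minor clones the medians were -0.08 over fibroblast, -0.07 over pericyte and 0.44 over leukocyte genes, of which *Cd3e*, a T cell gene, passed (0.94, limma, adjusted p = 0.0437). They were 0.32 over 8 smooth muscle genes (7 above 0), 0.04 over 5 platelet genes (3 above 0), -0.11 over 13 vessel matrix genes (3 above 0), -0.35 over 6 lymphatic endothelial genes (1 above 0) and 0.07 over 8 epithelial genes (5 above 0), of which *Cldn7*, an epithelial tight junction gene, passed (0.28 ± 0.08, limma, adjusted p = 0.0441). The part of these cells in the differences of the vessel genes was not tested.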

How the data were processed

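Bulk RNA sequencing of 63 libraries (stranded polyA libraries) was used. As deposited by the authors, the values are a signal per gene: read counts estimated with Salmon 1.9.0 from reads trimmed with Trimmomatic 0.39, per the submitters' processing notes and methods, then scaled between libraries, by a method not given in the sources used here beyond the use of DESeq2. Values sum to between 26140226 and 45909885 per library, are not whole numbers, and give no counting interval. All columns were used (0 without a sample). Major and minor clones were taken from the study's source data by sample title and paired by tumour number, since both clones come from 1 tumour.

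The members, gene lists and tests were chosen with earlier results of these data known. By the rule for named genes, these are the 10 members, list genes that passed (otherwise up to 3 of the highest mean), and the 10 most like the members' mean. Other list genes that are named, such as endothelial markers, correlation examples and *Vegfc*, fall outside that rule and were chosen after their values were seen. Genes nearest to single members were examined after seeing the data. Limma 3.58.1 in R 4.3.3 (eBayes with trend) was fitted to log2(value + 1) of genes with a mean of at least 10, with tumour as a block or mouse as a covariate. P-values were Benjamini-Hochberg adjusted over all genes (threshold 0.05). The fit was tested on simulated data. Correlations used 100000 two-sided permutations (numpy 2.4.6). Genome positions are GRCm39 (Gencode M39). Alternatives covered pseudocount, filter, scaling, covariates, block, segments, mice and single libraries.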

Additional observations from a re-analysis of the deposited data

How the results depend on the processing

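Of the 10 vessel genes, 2 passed in undivided tumours against minor clones. Their number was 1 with no filter on low values, 1 without the trend in limma, 1 when segment joined mouse as a covariate, 1 in SI10 and SI20 alone, 1 in the male mouse alone, 0 in the female mouse alone and 4 with the same sum without *Rn18s*. The share of all genes that passed was 1.72%, 3.32%, 2.23%, 1.97%, 4.59%, 0% and 5.4% in these settings, in this order. With 1 library left out it lay between 1 and 3, and *Flt1* passed in 43 of 43 such fits. In every other comparison 0 genes passed under each alternative, and the fit without the replicate block also left 0 in major against minor clones. Fewer tumours enter the fits of 1 mouse, and for the other settings the cause was not tested.

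Signs changed only where the difference was not called. In undivided tumours against minor clones, *Pecam1* was at -0.060 with the same sum in each library (a scaling that moved the median of all genes to -0.11), -0.073 with that sum without *Rn18s*, -0.0037 when segment joined mouse as a covariate, -0.032 in SI10 and SI20 alone and -0.069 in the female mouse. *Kdr* was at -0.031, -0.044, -0.018 and -0.031 with the same sum, without *Rn18s*, in SI10 and SI20 alone and in the female mouse. *Eng* was at -0.025, -0.039 and -0.047 with the same sum, without *Rn18s* and in the female mouse, and *Tie1* at -0.086 in the female mouse. With 1 library left out, *Pecam1* ran from -0.052 to 0.16, *Kdr* from -0.043 to 0.20 and *Eng* from -0.029 to 0.23. Against major clones the female mouse alone gave 0.37 for *Cdh5*, 0.016 for *Kdr*, 0.088 for *Tie1*, 0.023 for *Eng*, 0.045 for *Vegfa* and 0.028 for *Plvap*. In major against minor clones it gave -0.0067 for *Pecam1*, -0.047 for *Kdr*, -0.17 for *Tie1* and -0.069 for *Eng*, and the male mouse alone gave 0.046 for *Flt1*, 0.30 for *Tek* and 0.024 for *Vegfa*.

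The number of genes whose clones were related by r was 8 and became 0 in each mouse alone and 0 without the 2 farthest tumours, where *Flt1* was at -0.14. In the female mouse *Flt1* was at -0.068 and *Esam* at -0.089. Of the 9 relations with *Vegfa*, 6 passed, and 1 in the female mouse alone. Over all genes, 12.2% had an r above 0.5 with *Vegfa* in the 23 undivided tumours. The depth of single values is not given by scaled estimates, so the precision rests on the spread between tumours.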

Other observations

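The genes nearest to *Vegfa* were looked up after its values were seen, over the 63 libraries centred on class and mouse, as a description. They were *Ppp1r3b*, a subunit that directs a phosphatase to glycogen (r = 0.81), *Qsox1* (0.79) and *P4ha1* (0.79), which act on disulfides and on collagen proline, *Atf6*, a transcription factor of the unfolded protein response (0.79), and *Hspa1b*, a heat shock gene (0.79). *Sprr2f* (0.78) and *Gkn1* (0.78) followed. None of these is an endothelial marker, and *Gkn1* was also among the 10 genes nearest to *Tek* (0.66). *Tmprss11e* was among those nearest to both *Cdh5* (0.84) and *Tek* (0.67), and *Tmprss11g* to both *Cdh5* (0.78) and *Flt1* (0.76). Among the platelet genes, 5 with a mean of at least 10, the mean had an r of 0.70 with *Vegfa*, 0.70 with *Tie1*, 0.64 with *Eng*, 0.61 with *Pecam1* and 0.27 with *Cdh5*.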
